A study of Mus musculus with 18 samples.

Results

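Translation efficiency, the ribosome footprints on an mRNA relative to the RNA itself, was compared between HrasG12V shEif2b5 and WT shScram mouse epidermis for every gene with enough reads. The libraries were chosen by their labels, and 12 of the series' 18 were compared: 3 of footprints and 3 of RNA in each of the 2 conditions. The HrasG12V shEif2b5 embryos were of strain FR-HrasG12V, which carries an oncogenic allele of the small GTPase Hras, and had received an shRNA against Eif2b5. The WT shScram embryos were of a fluorescent reporter strain (tdTomato and EGFP, inserted at Gt(ROSA)26Sor) and had received a scrambled shRNA. In both conditions the shRNA was injected in utero at E9.5 and epidermal basal cells were collected at E18.5, with cycloheximide present while the epidermis was freed and dissociated. The remaining 6 libraries, of HrasG12V shScram embryos of strain FR-HrasG12V, entered the fit to share the estimate of spread and are set beside the comparison at the end. A WT shEif2b5 group was not analysed here, so that the shRNA, the Hras allele and the strain differ together between the conditions compared and cannot be told apart. The labels name neither what drives the Hras allele nor how many embryos went into a library, and they do not say whether cells carrying the shRNA were selected. The genotype of WT shScram footprint library 1 is written Rosa26 where the other libraries of that group read WT, and it was kept in its group.

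Initiation factor eIF2 brings the initiator tRNA to the ribosome and leaves it bound to GDP, and eIF2B is the exchange factor that reloads it with GTP. Eif2b5 encodes the catalytic subunit of eIF2B. Kinases that phosphorylate eIF2 turn it into an inhibitor of eIF2B, general initiation then falls, and a few mRNAs with short reading frames in their leaders, of which Atf4 is the best known, are read more. Oncogenic Hras acts through the RAF, MEK and ERK kinases, which in keratinocytes drive proliferation and feed back through phosphatases and Sprouty proteins.

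Coding-sequence reads in the 12 libraries came to 3319175 to 4933298 per footprint library and 2209327 to 5505386 per RNA library. Of 20655 genes in the table, 10793 (52.3%) had enough reads in both kinds of library to be tested, and levels are given in CPM, counts scaled to library size within a kind. The cells were labelled basal, and the basal keratins Krt5 and Krt14 read at 2986 to 5593 and 385 to 2157 CPM per kilobase of coding sequence over the 12 libraries. The spinous keratins Krt1 and Krt10, which mark the layer above, read at 6746 to 26157 and 3270 to 26634 CPM per kilobase, so that markers of differentiated keratinocytes were among the most abundant in libraries labelled basal. HrasG12V shEif2b5 footprint libraries 2 and 3 stood apart from library 1 in these genes: 10 spinous markers summed to 70482 and 69525 CPM in libraries 2 and 3 and to 23429 CPM in library 1, against 22457 to 44232 CPM in WT shScram footprints. The same markers summed to 46888 to 59944 CPM in HrasG12V shEif2b5 RNA, against 65642 to 99132 CPM in WT shScram RNA. Results that rest on these libraries are given below with and without them. In bulk samples, fewer cells of a type and less RNA per cell cannot be told apart.

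The knockdown target was read first. Eif2b5 (mm10, chr16:20498817-20509323, plus strand) had 82.8, 78.6 and 95.7 CPM of footprints in HrasG12V shEif2b5, against 102, 106 and 102 CPM in WT shScram. Its RNA was 135, 129 and 144 CPM in HrasG12V shEif2b5, against 159, 179 and 159 CPM in WT shScram. Every HrasG12V shEif2b5 library thus lay below every WT shScram library of its kind, at 0.826 times the level in footprints (adjusted p = 0.768, edgeR) and 0.820 times in RNA (adjusted p = 0.857, edgeR), neither past the threshold of 0.05. The efficiency difference of Eif2b5, its log2 footprint difference minus its log2 RNA difference, was 0.01 ± 0.41 (SE).

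Hras itself had 69.5, 109 and 77.2 CPM of footprints in HrasG12V shEif2b5, against 73.6, 87.1 and 69.9 CPM in WT shScram. Its RNA was 221, 282 and 309 CPM in HrasG12V shEif2b5, against 262, 227 and 211 CPM in WT shScram. The groups overlapped in both kinds, the efficiency difference was -0.07 ± 0.23 (SE), and counts per gene do not separate the oncogenic allele from the normal one. Fbxo32, which encodes an F-box subunit of an SCF ubiquitin ligase, had an efficiency difference of -0.05 ± 0.40 (SE), and its footprints overlapped at 9.37 to 17.7 CPM in HrasG12V shEif2b5 and 10.9 to 21.0 CPM in WT shScram.

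No gene passed the threshold for a change in translation efficiency between HrasG12V shEif2b5 and WT shScram. Of 10793 genes, 0 (0%) had an adjusted p under 0.05 by edgeR's quasi-likelihood test, and the smallest adjusted p was 0.709. Limma voom called 0 genes as well, and the DESeq2 Wald test called 3, namely Endou, Sptan1 and Dsp. At an unadjusted p under 0.05 there were 634 genes (5.87%), 368 of them higher in HrasG12V shEif2b5 (3.41%) and 266 lower (2.46%). When HrasG12V shEif2b5 footprint library 1 was left out, 18 of 10841 genes (0.166%) were called, all of them higher, and these genes are described below. Leaving out any other single library of the 12 gave 0 calls.

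Relative to the other genes, these data bounded most genes well enough to place them within a 2-fold change. The efficiency difference had a median of 0.00 and a median SE of 0.276 on the log2 scale. Scaling within each kind of library holds that median near 0. A change of translation shared by most genes could therefore not be seen in these values. The whole 95% interval lay inside a 2-fold change in either direction for 7324 genes (67.9%) and inside a 1.5-fold change for 2052 (19.0%). The bound followed depth: it lay inside 2-fold for 15.2% of the least expressed 20% of genes, 62.5% of the next 20%, then 82.7%, 89.0% and 89.9% of the classes above.

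With each kind of library scaled on its own, genes differed from each other in efficiency far more than the conditions did. The level of efficiency, the log2 of mean footprint CPM over mean RNA CPM, spanned -1.76 to 1.53 from the 10th to the 90th percentile of genes in HrasG12V shEif2b5 and -1.70 to 1.46 in WT shScram. Its SD across genes was 1.28 in HrasG12V shEif2b5 and 1.23 in WT shScram, whereas the difference of levels between the conditions had an SD of 0.366. Across the 10793 genes the levels of the conditions had a Pearson r of 0.958, which describes genes that share coding length, base composition and library protocol. Some gene groups had median levels close to each other in the conditions and others did not. A gap between median levels is not the group's median efficiency difference. Of the groups given next, that difference was 0.15 for the proteasome subunits, -0.25 for the hair follicle genes and -0.20 for the Wnt targets. The median level of 76 tested subunits of oxidative phosphorylation was 1.38 in HrasG12V shEif2b5 and 1.30 in WT shScram, that of 36 proteasome subunits 1.27 and 1.34, and that of 77 cytosolic ribosomal proteins, whose mRNAs carry the regulatory TOP motif, -0.62 in both. Among 16 mRNAs with known regulatory upstream reading frames the median level was -1.60 in HrasG12V shEif2b5 and -1.70 in WT shScram. Further apart were 35 giant protein genes at -1.17 in HrasG12V shEif2b5 and -1.79 in WT shScram, 10 spinous markers at 0.21 and -0.36, 16 granular and cornified markers at 0.25 and -0.30, 19 hair follicle genes at -1.06 and -0.53, and 13 Wnt targets at -1.07 and -0.54.

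Where gene expression did change, footprints and RNA mostly moved in the same direction, with 29 genes called in both. Footprints changed for 132 genes (1.22%), 107 higher (0.991%) and 25 lower (0.232%) in HrasG12V shEif2b5. RNA changed for 58 genes (0.537%), 37 higher (0.343%) and 21 lower (0.195%). Of the 107 genes with higher footprints, 92 had higher RNA as well and 25 of those were called in RNA. Their median difference was 0.94 in footprints and 0.54 in RNA on the log2 scale. Of the 25 genes with lower footprints, 24 had lower RNA, 4 of them called, with medians of -0.74 in footprints and -0.34 in RNA. Of the 37 genes with higher RNA, all 37 had higher footprints and 25 were called, with a median RNA difference of 1.18 and a median footprint difference of 1.09 on the log2 scale. The 21 genes with lower RNA all had lower footprints, 4 of them called, with median differences of -0.86 in RNA and -0.49 in footprints. Because efficiency is made from both differences, genes picked for one of them carry its error into the efficiency. Nothing is read here from their efficiency medians of 0.44, -0.40, -0.21 and 0.57. The counts rest on single libraries: footprint calls fell to 52 and 41 without HrasG12V shEif2b5 footprint libraries 2 and 3, to 40 and 57 without WT shScram footprint libraries 1 and 2, and came to 228 and 212 without HrasG12V shEif2b5 footprint library 1 and WT shScram footprint library 3. RNA calls were 19 to 31 when any 1 of the 6 RNA libraries was left out.

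**Figure D1:**
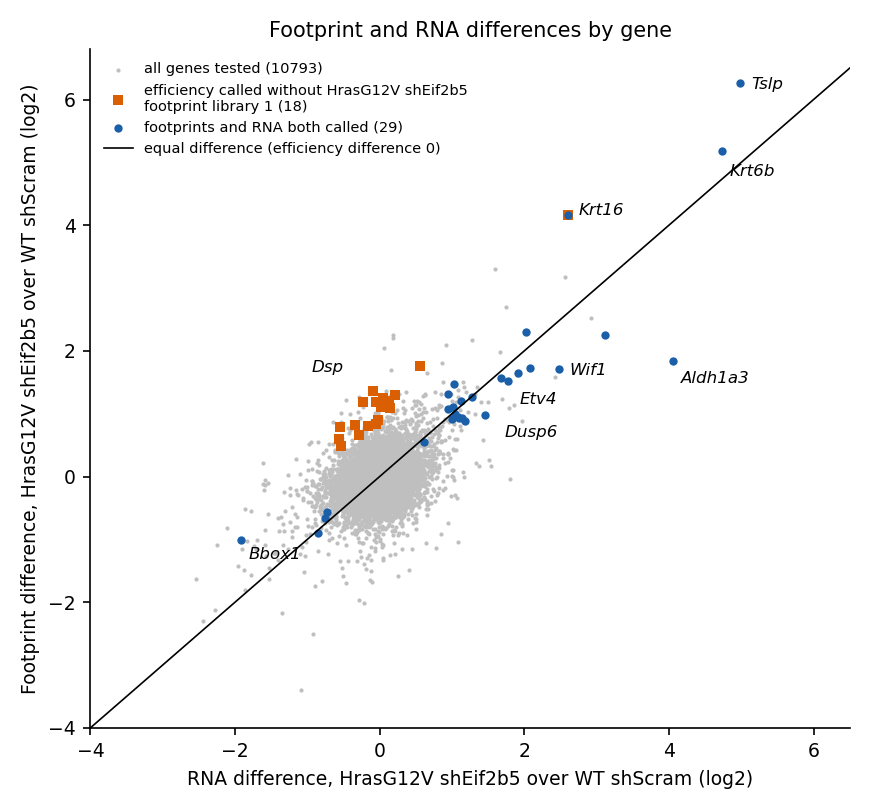
The log2 footprint difference of each gene (vertical axis) is plotted against its log2 RNA difference (horizontal axis), HrasG12V shEif2b5 over WT shScram, and the line marks an efficiency difference of 0. The 29 genes called in both kinds lie mostly along the line, and the 18 genes whose efficiency was called without HrasG12V shEif2b5 footprint library 1 lie above it at RNA differences mostly near 0; Tslp and Aldh1a3 were at or near 0 in WT shScram, so their plotted differences depend on the fit.

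The feedback genes of RAS-ERK signalling were one such group. Of 28 listed genes 22 were tested, and 8 rose in footprints (background 0.991%), 6 rose in RNA (background 0.343%), and none fell. Both counts include Spry4, which had enough reads only in the HrasG12V groups. Dusp6, the phosphatase that turns off ERK, had 289, 303 and 282 CPM of footprints in HrasG12V shEif2b5, against 117, 118 and 127 CPM in WT shScram. Its RNA was 260.0, 215 and 216 CPM in HrasG12V shEif2b5, against 93.1, 79.9 and 111 CPM in WT shScram. The groups did not overlap in either kind, and the rise was 2.42-fold in footprints (adjusted p = 1.62e-05) and 2.42-fold in RNA (adjusted p = 1.84e-05, edgeR). The efficiency difference of Dusp6 was therefore -0.00 ± 0.21 (SE), with a 95% interval of -0.42 to 0.42, so a change of efficiency beyond 1.5-fold lay outside its interval.

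Etv4, an ETS transcription factor induced by ERK, had 67.1, 48.0 and 51.1 CPM of footprints in HrasG12V shEif2b5, against 18.53, 18.87 and 18.54 CPM in WT shScram. Its RNA was 105, 87.2 and 85.9 CPM in HrasG12V shEif2b5, against 27.6, 31.6 and 27.9 CPM in WT shScram. It rose 2.97-fold in footprints and 3.20-fold in RNA (adjusted p = 5.58e-06 and 2.11e-06, edgeR) with an efficiency difference of -0.11 ± 0.24 (SE). Its relative Etv5 rose by log2 differences of 1.11 in footprints and 1.01 in RNA, with an efficiency difference of 0.10 ± 0.27. The Sprouty genes, inhibitors of receptor signalling to RAS, did the same: Spry4 rose by 2.31 in footprints and 2.03 in RNA, Spry1 by 1.47 and 1.03, and Spry2 by 0.99 and 1.04 on the log2 scale. In WT shScram, Spry4 had only 1.00 to 3.37 CPM of footprints and 1.09 to 4.06 CPM of RNA, so its rises depend on few reads. The calls of Dusp6 and Etv4 held under every alternative run; others were lost without single libraries. Etv5 lost its RNA call without HrasG12V shEif2b5 RNA library 1 or 2 or WT shScram RNA library 1 or 2, Spry1 its RNA call without WT shScram RNA library 3, and Spry4 its RNA call without HrasG12V shEif2b5 RNA library 1 or 3 or WT shScram RNA library 2 or 3. Spry2 lost its footprint call without HrasG12V shEif2b5 or WT shScram footprint library 2 and its RNA call without WT shScram RNA library 2. The efficiency differences of the 22 tested genes had a median of 0.04, beside 0.00 over all genes, and that median turned to -0.00 with upper-quartile scaling, which moved the median of all genes to -0.03, and to -0.03 without WT shScram footprint library 2.

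Efficiency differences in this group ran from -0.99 to 0.77. Of the 22 tested genes, 1 had an efficiency p under 0.05 before adjustment (background 5.87%), namely Epha2. It encodes an ephrin receptor tyrosine kinase of epithelia and had 98.3, 117 and 110.2 CPM of footprints in HrasG12V shEif2b5, against 64.9, 70.5 and 60.9 CPM in WT shScram. Its RNA was 127, 109 and 117 CPM in HrasG12V shEif2b5, against 131, 133 and 101 CPM in WT shScram. Footprints did not overlap and were higher by 0.73 on the log2 scale (adjusted p = 0.00409, edgeR), RNA overlapped with a difference of -0.04, and the efficiency difference was 0.77 ± 0.19 (SE; unadjusted p = 0.000385, adjusted p = 0.709, edgeR). The footprint call was lost when HrasG12V shEif2b5 footprint libraries 2 and 3 were both left out, which leaves 1 library in that group, with a difference of 0.58, the lowest under any alternative run.

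Keratins of wounded and stressed skin gave large changes in both kinds, with wide efficiency intervals. Krt6b had 68.9, 246 and 196 CPM of footprints in HrasG12V shEif2b5, against 2.81, 5.68 and 5.26 CPM in WT shScram. Its RNA was 132, 148 and 133 CPM in HrasG12V shEif2b5, against 4.06, 6.23 and 5.07 CPM in WT shScram. Its rise was 36.3-fold in footprints and 26.7-fold in RNA, both past the threshold, and the efficiency difference was 0.44 ± 0.84 (SE). Krt16, its partner in the filament, had 102, 559.9 and 547 CPM of footprints in HrasG12V shEif2b5, against 15.7, 23.4 and 27.8 CPM in WT shScram. Its RNA was 342, 362 and 454 CPM in HrasG12V shEif2b5, against 66.2, 74.0 and 52.1 CPM in WT shScram. Krt16 rose 17.9-fold in footprints and 6.07-fold in RNA (adjusted p = 0.00207 and 0.0398, edgeR), but the RNA call was lost under 10 of 22 alternatives, including each of the 6 RNA libraries left out, while the RNA difference stayed between 2.46 and 2.72 on the log2 scale in all of them, and footprint library 1 of HrasG12V shEif2b5 lay far below libraries 2 and 3. Its efficiency difference was 1.56 ± 0.70 (SE; unadjusted p = 0.0438, adjusted p = 0.84, edgeR). Krt6a and Krt6b, and Krt16, Krt14 and Krt17, are near-identical in sequence, so counts of each may include reads of its relatives.

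No gene of the 10793 passed the efficiency threshold, so none of those called in both kinds did. Of the 29 genes called in footprints and RNA, 25 rose and 4 fell in both. Among the 25, Tslp, Aldh1a3, Ehd3 and Spry4 had few reads in WT shScram. The efficiency interval lay inside 2-fold for 16 of the 29, and 4 had an efficiency p under 0.05 before adjustment: Aldh1a3, Bbox1, Krt16 and Wif1. The background for that p was 5.87% of all genes, and since these 29 were picked for their footprint and RNA differences, their efficiency values are a description. Wif1, a secreted inhibitor of Wnt, had 44.9, 49.3 and 53.1 CPM of footprints in HrasG12V shEif2b5, against 17.97, 14.3 and 12.8 CPM in WT shScram. Its RNA was 28.9, 16.4 and 34.5 CPM in HrasG12V shEif2b5, against 5.28, 6.62 and 3.26 CPM in WT shScram, and the efficiency difference was -0.76 ± 0.37 (SE; adjusted p = 0.84, edgeR). Bbox1, the last enzyme of carnitine synthesis, had 22.2, 21.6 and 16.1 CPM of footprints in HrasG12V shEif2b5, against 39.9, 37.7 and 43.3 CPM in WT shScram. Its RNA was 5.93, 2.13 and 3.78 CPM in HrasG12V shEif2b5, against 13.0, 14.0 and 17.0 CPM in WT shScram, and its efficiency difference was 0.90 ± 0.36 (SE); its footprint call was lost without HrasG12V shEif2b5 footprint library 3. Tslp, an epithelial cytokine, had 7.25 to 10.9 CPM of footprints in HrasG12V shEif2b5, against 0 to 0.227 CPM in WT shScram, too few for a fold change.

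**Figure D2:**
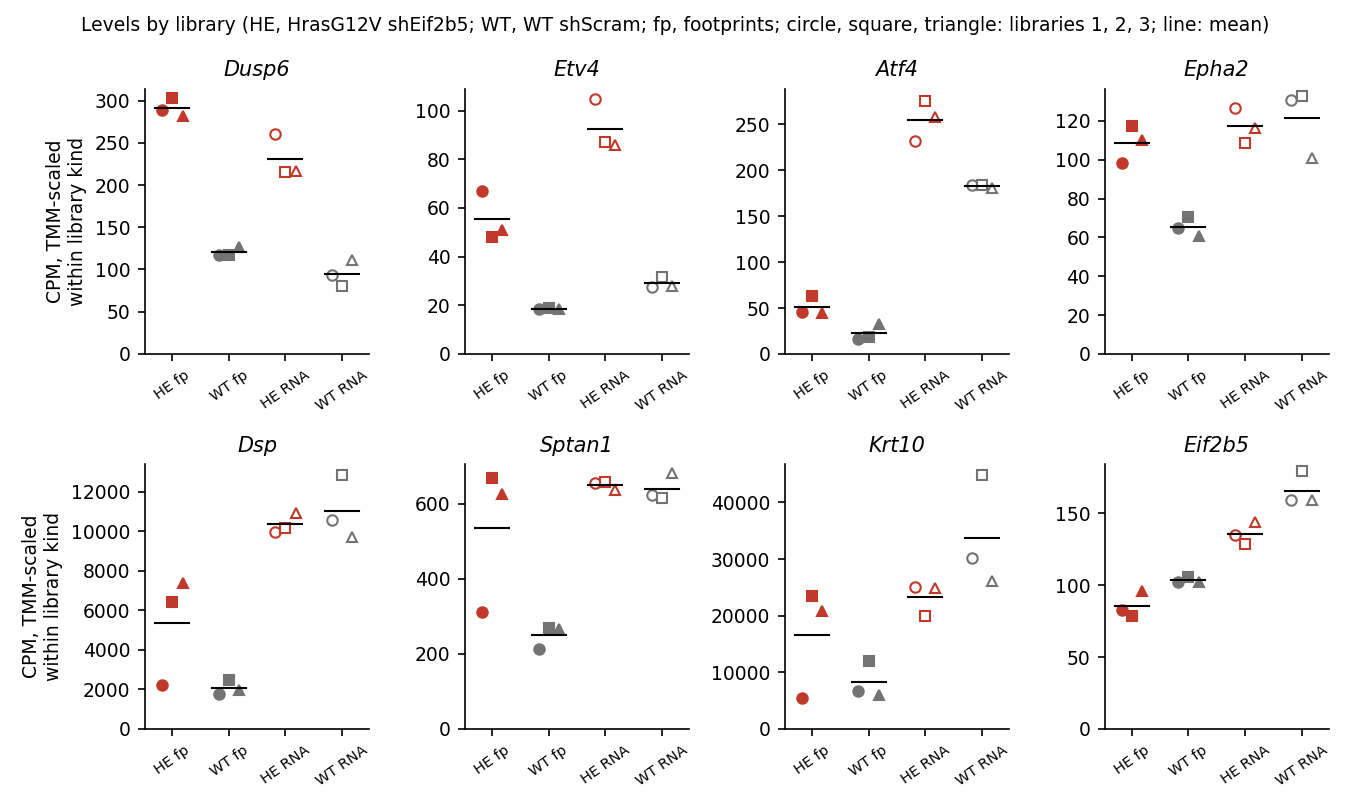
Levels of 8 genes are plotted by library in CPM scaled within each kind, with footprints as filled and RNA as open symbols, circles, squares and triangles for libraries 1, 2 and 3, and a line at the mean. Dusp6 and Etv4 are higher in HrasG12V shEif2b5 in both kinds, Atf4 and Epha2 mainly in footprints, and for Dsp, Sptan1 and Krt10 the HrasG12V shEif2b5 footprint libraries 2 and 3 lie above library 1.

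The efficiency threshold was passed by no gene of the 10793 tested, and so by no part of the eIF2 machinery. All 9 listed subunits of eIF2B and eIF2 were tested, and none was called in footprints (background 1.22%) or RNA (background 0.537%) either. Their median efficiency difference was 0.25, or 0.10 without WT shScram RNA library 3. The 5 eIF2B subunits ranged from -0.29 (Eif2b2) to 0.63 (Eif2b3), with 4 above 0. Eif2b3, a subunit of the catalytic subcomplex, had 108, 93.7 and 96.8 CPM of footprints in HrasG12V shEif2b5, against 73.6, 75.0 and 87.7 CPM in WT shScram. Its RNA was 25.2, 26.3 and 28.3 CPM in HrasG12V shEif2b5, against 32.1, 28.8 and 35.8 CPM in WT shScram. The groups did not overlap in either kind, in opposite directions, and the efficiency difference was 0.63 ± 0.21 (SE; unadjusted p = 0.00538, adjusted p = 0.764, edgeR). The eIF2 subunits, Eif2s1, Eif2s2 and Eif2s3x, lay at 0.25 ± 0.20, -0.08 ± 0.22 and 0.14 ± 0.22. Of the eIF2 kinases and phosphatase subunits, 8 of 9 were tested, and they ran from -0.35 (Eif2ak3, the kinase of the endoplasmic reticulum) to 0.21 (Ppp1r15b, a targeting subunit of the eIF2 phosphatase), with every 95% interval inside 2-fold; Ppp1r15a had too few reads to be tested.

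Atf4 (mm10, chr15:80255184-80257541, plus strand) encodes the transcription factor whose translation is the standard readout of eIF2 activity. The start codons of its annotated leader and coding sequence are shown because ribosomes that pass the upstream frames decide how often the main one is read. Each line gives 12 bases before the start codon, the ATG in capitals, and 12 bases after it, read on the plus strand of mm10.
upstream frame 1: cacttttctctcATGgggcctttagga
upstream frame 2: cttgcggccaccATGgcgtattagagg
upstream frame 3: ccggcctaagccATGgcgctcttcacg
main frame: aagccccacaacATGaccgagatgagc
Upstream frame 1 starts 475 bases before the main start and has 36 codons, frame 2 starts 196 bases before it and has 3 codons, and frame 3 starts 97 bases before it and, with 59 codons, runs past the main start in another frame. The main frame has 349 codons, and the deposited counts cover coding sequence only, so footprints on the separate upstream frames were not analysed here. The part of frame 3 past the main start lies inside the coding sequence. Footprints on it cannot be told from those of the main frame in these counts.

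Footprints on the Atf4 coding sequence rose in HrasG12V shEif2b5. They were 45.3, 63.6 and 45.0 CPM in HrasG12V shEif2b5, against 16.3, 17.96 and 32.8 CPM in WT shScram. Atf4 RNA was 232, 276 and 258 CPM in HrasG12V shEif2b5, against 184, 184 and 181 CPM in WT shScram. Neither kind overlapped, and the difference was 2.29-fold in footprints (adjusted p = 0.00167, edgeR) and 1.39-fold in RNA (adjusted p = 0.368, edgeR). The level of Atf4 efficiency was low in both, at -2.31 in HrasG12V shEif2b5 and -3.03 in WT shScram, where the median gene lay at -0.01 in both. The efficiency difference was 0.71 ± 0.27 (SE), or 1.64-fold, with a 95% interval of 0.17 to 1.26, and did not pass the threshold (unadjusted p = 0.0125, adjusted p = 0.814, edgeR). It was 1.10 without WT shScram footprint library 3, also short of the threshold (adjusted p = 0.362, edgeR). The footprint call was lost (adjusted p = 0.237, edgeR) when HrasG12V shEif2b5 footprint libraries 2 and 3 were both left out, which leaves 1 library in that group, while the footprint difference stayed at 1.01 or more on the log2 scale under every alternative run.

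Other mRNAs of the same kind did not share a direction, and medians hardly differed by the number of upstream start codons. Of 18 listed mRNAs with regulatory upstream reading frames 16 were tested, 10 lay above 0 and 6 below, and 2 of them (Atf4 and Eprs) were higher at an unadjusted p under 0.05, which 3.41% of all genes were. Atf5, a relative of Atf4, had 9.47, 13.8 and 12.7 CPM of footprints in HrasG12V shEif2b5, against 5.33, 5.68 and 5.51 CPM in WT shScram. Its RNA was 118, 126 and 201 CPM in HrasG12V shEif2b5, against 78.8, 129 and 47.4 CPM in WT shScram, and the efficiency difference was 0.30 ± 0.62 (SE). Cebpb, a factor whose start site choice depends on an upstream frame, lay at -0.65 ± 0.42. Over all genes, the median efficiency difference was 0.00 both without an annotated upstream AUG (5384 genes) and with 1 (2343 genes), and 0.03 with 6 or more (593 genes).

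**Figure D3:**
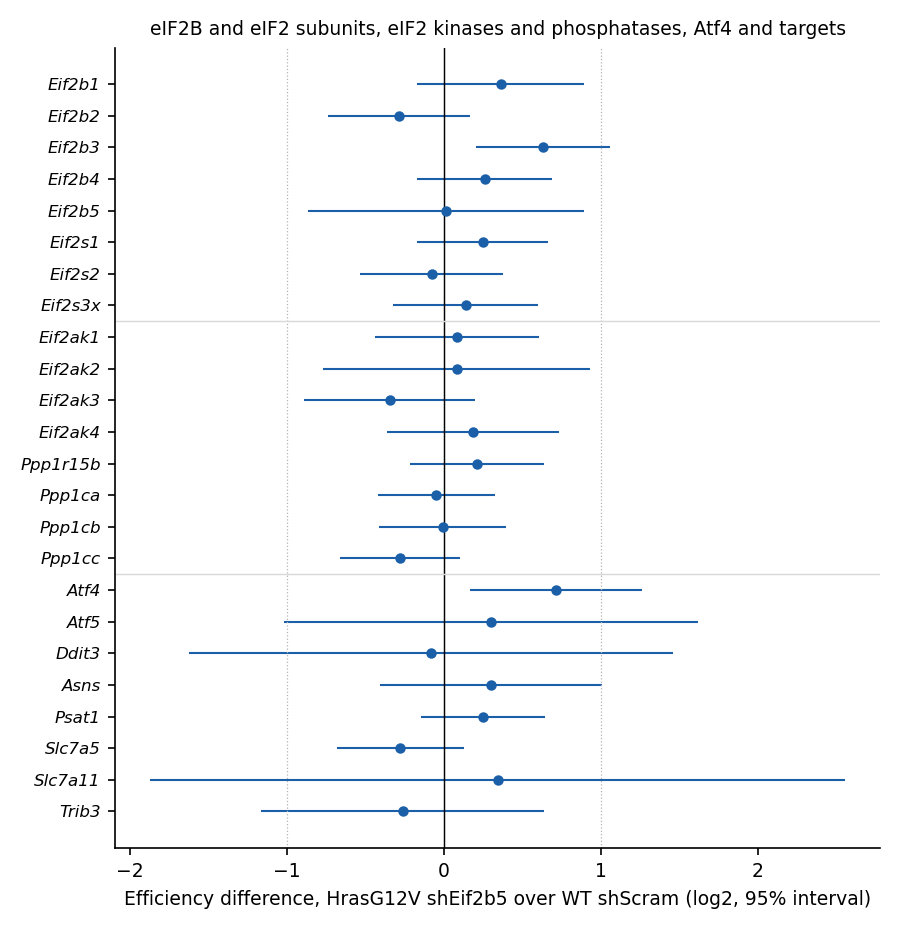
Efficiency differences (log2, HrasG12V shEif2b5 over WT shScram) of 8 eIF2B and eIF2 subunits, the tested eIF2 kinases and phosphatase subunits, and Atf4, Atf5, Ddit3 and targets of ATF4 are drawn as points with 95% intervals, and dotted lines mark a 2-fold change. Atf4, at 0.71, and Eif2b3, at 0.63, have intervals that exclude 0 before adjustment, and no gene drawn passes the adjusted threshold.

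Targets of ATF4 gave 1 call in footprints and 1 in RNA. Of 30 listed targets 26 were tested, and 0 had an efficiency p under 0.05 even before adjustment (background 5.87%). In footprints 1 rose (background 0.991%) and in RNA 1 rose (background 0.343%). Psat1, an enzyme of serine synthesis, had 655, 705 and 776 CPM of footprints in HrasG12V shEif2b5, against 403, 548 and 525 CPM in WT shScram. Its RNA was 361, 349.7 and 351 CPM in HrasG12V shEif2b5, against 275, 313 and 284 CPM in WT shScram. Psat1 footprints were higher by 0.53 on the log2 scale (adjusted p = 0.0447, edgeR), a call lost under 13 of 22 alternatives, including HrasG12V shEif2b5 footprint libraries 2 and 3, WT shScram footprint libraries 1 and 2 and each RNA library left out, with an efficiency difference of 0.25 ± 0.19 (SE). Slc7a5, the light chain of an amino acid transporter, was the one called in RNA, at 0.65 on the log2 scale (adjusted p = 0.0255, edgeR), with an efficiency difference of -0.28 ± 0.20; the call was lost without HrasG12V shEif2b5 RNA library 1 or 3 or WT shScram RNA library 1 or 3. Asns, which makes asparagine, lay at 0.30 ± 0.34 and Ddit3, a factor of stress-induced death, at -0.08 ± 0.75 in efficiency.

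The cytosolic tRNA synthetases, which charge tRNAs and many of which are ATF4 targets, leaned one way without an efficiency call. All 20 were tested, 18 lay above 0, the median efficiency difference was 0.24, and 5 were higher at an unadjusted p under 0.05 (background 3.41%). Lars, for leucine, had 190.1, 224 and 265 CPM of footprints in HrasG12V shEif2b5, against 108, 177 and 150.3 CPM in WT shScram. Its RNA was 134, 129 and 118 CPM in HrasG12V shEif2b5, against 128, 143 and 117 CPM in WT shScram. Its footprints thus did not overlap while its RNA did, and its efficiency difference was 0.66 ± 0.22 (SE; unadjusted p = 0.00607, adjusted p = 0.79, edgeR). Lars was called in footprints (adjusted p = 0.0327, edgeR), but not without HrasG12V shEif2b5 footprint library 2 or 3 or WT shScram footprint library 1. Eprs, for glutamate and proline, had 377, 378 and 499.7 CPM of footprints in HrasG12V shEif2b5, against 281, 332 and 302 CPM in WT shScram, and an efficiency difference of 0.54 ± 0.21 (SE; unadjusted p = 0.0171, edgeR). The median of the 20 stayed between 0.17 and 0.34 with each single library left out and was 0.27 with HrasG12V shEif2b5 footprint libraries 2 and 3 both left out.

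The rest of the translation apparatus stayed near 0, where the scaling puts the median gene. The median efficiency difference was 0.05 for 77 tested cytosolic ribosomal proteins (-0.02 without WT shScram RNA library 1), 0.10 for 18 other TOP mRNAs and 0.14 for 30 other initiation factors. Among the ribosomal proteins 1 was higher (background 3.41%) and 2 were lower (background 2.46%) at an unadjusted p under 0.05. The one past the threshold in footprints (background 0.991%) was Rps29, a protein of the small subunit. Rps29 had 481, 619.7 and 637 CPM of footprints in HrasG12V shEif2b5, against 379, 391 and 328 CPM in WT shScram. Its RNA was 381, 344 and 371 CPM in HrasG12V shEif2b5, against 418, 365 and 367 CPM in WT shScram, and its efficiency difference was 0.73 ± 0.22 (SE; adjusted p = 0.709, edgeR). Rps29 is short and has processed copies in the genome, and its footprint call was lost under 7 of 22 alternatives, including HrasG12V shEif2b5 footprint libraries 2 and 3 and each WT shScram footprint library left out. Mitochondrial ribosomal proteins had a median of -0.09 and nuclear OXPHOS subunits of 0.03, the sign of the second turning with upper-quartile scaling; the proteasome stood at 0.15 and cholesterol synthesis at 0.19.

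Genes of long coding sequence leaned towards higher efficiency in HrasG12V shEif2b5. The median efficiency difference was -0.03 for 862 genes with coding sequences up to 500 bases, -0.02 between 1000 and 2000 bases, 0.07 between 3000 and 5000, 0.16 for 382 genes between 5000 and 8000 and 0.27 for 131 genes over 8000 bases. In the last class 26.0% were higher and 1.53% lower at an unadjusted p under 0.05, against 3.41% and 2.46% of all genes. The lean lay in footprints: relative to the WT shScram mean, the median long gene stood at 0.13, 0.26 and 0.34 in HrasG12V shEif2b5 footprint libraries 1, 2 and 3, against -0.10, 0.07 and 0.01 in WT shScram footprint libraries. In RNA it stood at -0.04, 0.01 and -0.13 in HrasG12V shEif2b5, against -0.05, 0.00 and 0.05 in WT shScram. The median of the genes over 8000 bases was 0.20 to 0.34 with single libraries left out, 0.12 with HrasG12V shEif2b5 footprint libraries 2 and 3 both left out, and 0.03 under offsets for coding GC content and length, which by construction level such a trend. By coding GC content the median ran from 0.07 in the 20% of genes with the lowest content to -0.13 in the 20% with the highest.

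**Figure D4:**
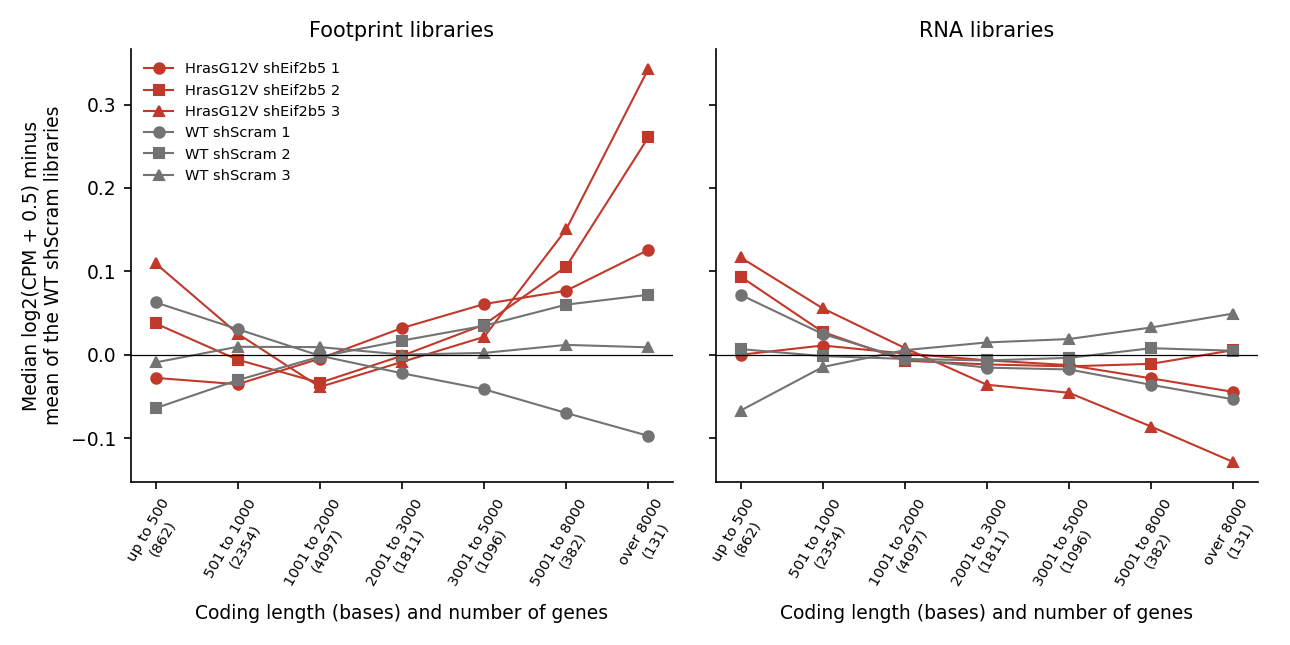
The median log2(CPM + 0.5) of genes in each class of coding length, minus the mean of the 3 WT shScram libraries, is plotted for each footprint library (left) and each RNA library (right). In the class over 8000 bases the HrasG12V shEif2b5 footprint libraries stand at 0.13, 0.26 and 0.34 and the WT shScram footprint libraries between -0.10 and 0.07, while the RNA libraries of the conditions overlap.

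Giant scaffold, motor and cytolinker proteins showed it gene by gene. Of 38 listed genes 35 were tested, with coding sequences of 5955 to 26397 bases. Of these, 33 lay above 0, with a median efficiency difference of 0.51. At an unadjusted p under 0.05, 17 were higher (background 3.41%) and none was lower (background 2.46%). The median was 0.14 under offsets for GC content and length and 0.14 without HrasG12V shEif2b5 footprint libraries 2 and 3. Macf1, which links microtubules to actin, had 109, 244 and 323 CPM of footprints in HrasG12V shEif2b5, against 104, 89.6 and 81.4 CPM in WT shScram. Its RNA was 569, 682 and 679 CPM in HrasG12V shEif2b5, against 551, 532 and 578 CPM in WT shScram. Dync1h1, the heavy chain of the motor dynein, had 224, 502 and 708 CPM of footprints in HrasG12V shEif2b5, against 165, 227 and 212 CPM in WT shScram. In both genes libraries 2 and 3 lay well above every WT shScram library, while library 1 lay close to the highest of them. Herc2, a giant ubiquitin ligase, and Mdn1, a motor of ribosome assembly, had the smallest p of the list, with efficiency differences of 0.76 ± 0.23 and 1.08 ± 0.32 (SE).

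The 18 genes called without HrasG12V shEif2b5 footprint library 1 were mostly long. Their median coding length was 7329 bases against 1443 over all tested genes, 11 exceeded 5000 bases, and their efficiency differences without that library ran from 1.13 to 2.02 on the log2 scale. In all 18, library 1 had fewer footprints than libraries 2 and 3, by a median factor of 2.65, and in 11 it lay at or under the highest WT shScram library. Genes that are called once library 1 is gone were chosen for a low value in it, so its place is a description of the choice. They include the cytoskeletal proteins Sptan1, Sptbn1, Iqgap1, Macf1, Dync1h1, Ahnak and Eppk1, the desmosomal plaque protein Dsp, the keratins Krt1 and Krt16, and Fasn, the fatty acid synthase. Dsp had 2229, 6408 and 7369 CPM of footprints in HrasG12V shEif2b5, against 1785, 2492 and 1966 CPM in WT shScram. Its RNA was 9957, 10166 and 10940.5 CPM in HrasG12V shEif2b5, against 10550.5, 12843 and 9682 CPM in WT shScram. Its efficiency difference was 1.45 ± 0.40 (SE; adjusted p = 0.709, edgeR) over all libraries and 1.82 ± 0.24 (adjusted p = 0.00039, edgeR) without library 1. The footprint difference of Dsp was 1.36 over all libraries and 0.09 without libraries 2 and 3. Sptan1, the spectrin that lines the membrane, had 313, 669.7 and 625 CPM of footprints in HrasG12V shEif2b5, against 214, 268 and 267 CPM in WT shScram. Its RNA was 654, 657 and 636 CPM in HrasG12V shEif2b5, against 623, 614 and 683 CPM in WT shScram, with an efficiency difference of 1.08 ± 0.26 over all libraries and 1.35 ± 0.20 without library 1 (SE; adjusted p = 0.709 and 0.000528, edgeR). Its footprint difference was 1.10 over all libraries and 0.32 without libraries 2 and 3.

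Markers of the differentiated layers moved with the same libraries. The 10 spinous markers had a median efficiency difference of 0.65, with 9 above 0 and 4 higher at an unadjusted p under 0.05 (background 3.41%), and 16 tested markers of the granular and cornified layers one of 0.52, with 2 higher against the same background. Krt1 had 14273, 40885 and 42707 CPM of footprints in HrasG12V shEif2b5, against 16909, 26954 and 12892 CPM in WT shScram. Its RNA was 32136, 24126 and 30453 CPM in HrasG12V shEif2b5, against 39941, 49986 and 36840.2 CPM in WT shScram. Footprints overlapped through library 1, RNA was lower in every HrasG12V shEif2b5 library, and the efficiency difference was 1.33 ± 0.48 (SE; adjusted p = 0.814, edgeR). Krt10 lay at 1.55 ± 0.65 and Dsg1a, a desmosomal cadherin, at 0.87 ± 0.27. Without HrasG12V shEif2b5 footprint libraries 2 and 3 the medians were -0.07 for the spinous and -0.37 for the granular and cornified markers, so that their direction rests on those libraries. The granular and cornified markers summed to 2008, 4679 and 4521 CPM in HrasG12V shEif2b5 footprints, against 1909, 4039 and 1784 CPM in WT shScram footprints, which moves with library in both groups; the part of these sums in the efficiency differences was not tested.

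Basal keratinocyte genes differed less. All 15 were tested and 14 lay above 0, with a median efficiency difference of 0.14 (0.03 without WT shScram RNA library 3) and 2 of them higher at an unadjusted p under 0.05 (background 3.41%), Krt15 at 0.76 ± 0.26 and Krt14 at 0.85 ± 0.37 (SE). Krt15 had 903, 1252 and 1458 CPM of footprints in HrasG12V shEif2b5, against 872, 1081 and 1385 CPM in WT shScram, which overlap. Its RNA was 1341, 1279 and 1389 CPM in HrasG12V shEif2b5, against 1906, 1837 and 2529.8 CPM in WT shScram, which do not. The genes of the wound and stress list, of which 9 of 17 were tested, had a median efficiency difference of 0.62. All 9 lay above 0. Of these, Tslp, at 0 to 0.227 CPM in WT shScram footprints, had enough reads only in the HrasG12V groups. Without HrasG12V shEif2b5 footprint libraries 2 and 3 the median was -0.18. That list summed to 7131, 9700 and 9354 CPM in HrasG12V shEif2b5 footprints, against 5370 to 6186 CPM in WT shScram footprints. Stfa3 made up most of these sums, at 6402, 7830 and 7613 CPM in HrasG12V shEif2b5, against 5614, 5223 and 4984 CPM in WT shScram.

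The glycolysis and Notch lists each had 3 genes higher at an unadjusted p under 0.05, which 3.41% of all genes were, and none with an efficiency call. Of 16 tested glycolytic genes 15 lay above 0, with a median efficiency difference of 0.31, and 3 were higher at an unadjusted p under 0.05. Hk1, the first enzyme of the pathway, had 74.3, 132 and 111 CPM of footprints in HrasG12V shEif2b5, against 51.1, 76.4 and 60.9 CPM in WT shScram. Its RNA was 85.7, 83.6 and 85.9 CPM in HrasG12V shEif2b5, against 84.5, 115 and 72.2 CPM in WT shScram, with an efficiency difference of 0.83 ± 0.26 (SE). Hk1 was the 1 glycolytic gene called in footprints (background 0.991%), at 0.75 on the log2 scale (adjusted p = 0.042, edgeR). That call was lost under 12 of 22 alternatives. The median of the glycolytic genes was 0.04 without HrasG12V shEif2b5 footprint libraries 2 and 3. Among 10 tested Notch receptors, ligands and targets, Notch2, Jag1 and Notch3 were higher at an unadjusted p under 0.05, at 0.79 ± 0.21, 0.49 ± 0.21 and 0.57 ± 0.25 (SE), while the list's median was 0.07 and ran from -0.03 without WT shScram RNA library 2 to 0.22 without WT shScram RNA library 3.

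Lower efficiency in HrasG12V shEif2b5 was seen as a lean in the lists below, none with an efficiency call. Of 19 hair follicle genes 17 lay below 0, with a median of -0.25, and 2 were lower at an unadjusted p under 0.05 (background 2.46%), the placode factor Foxi3 at -0.57 ± 0.26 and the ligand Eda at -1.03 ± 0.50 (SE). In footprints 1 hair follicle gene was called higher (background 0.991%) and 1 lower (background 0.232%). The lower one was Foxi3, at -0.72 on the log2 scale (adjusted p = 0.0431, edgeR), a call lost under 10 of 22 alternatives. The 13 Wnt targets had a median of -0.20, which ran from -0.31 without WT shScram RNA library 2 to -0.11 without HrasG12V shEif2b5 footprint library 3, with Wif1 the one under an unadjusted p of 0.05. Collagen chains had a median of -0.30 over 25 tested genes, which ran from -0.45 without WT shScram RNA library 1 to -0.15 without HrasG12V shEif2b5 RNA library 3. Col8a1, a short-chain collagen, had 12.9, 11.8 and 8.70 CPM of footprints in HrasG12V shEif2b5, against 19.4, 36.4 and 28.8 CPM in WT shScram. Col8a1 RNA was 16.3, 9.61 and 8.50 CPM in HrasG12V shEif2b5, against 15.4, 14.8 and 16.7 CPM in WT shScram. It was the 1 collagen chain called in footprints, at -1.34 on the log2 scale (adjusted p = 0.00685, edgeR), a call lost under 3 of 22 alternatives. Beside this, 11 dermal fibroblast markers summed to 1466 to 1738 CPM in HrasG12V shEif2b5 footprints, against 2944, 2219 and 1462 CPM in WT shScram footprints. In RNA they summed to 787 to 958 CPM in HrasG12V shEif2b5, against 2654, 1251 and 628 CPM in WT shScram. Dcn was the largest part of the footprint sums, at 1193, 903 and 889 CPM in HrasG12V shEif2b5, against 1433, 1177 and 1075 CPM in WT shScram. Marker by marker, the 9 tested had median log2 differences of -1.01 in footprints and -1.46 in RNA. The part of these markers in the collagen values was not tested. The 56 tested replication-dependent histones, a family of near-identical genes, had a median of -0.20, and of 0.01 under offsets for GC content and length. At an unadjusted p under 0.05, 7 were lower (background 2.46%) and 4 higher (background 3.41%). In footprints 3 histones were called, all of them higher (background 0.991%).

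**Figure D5:**
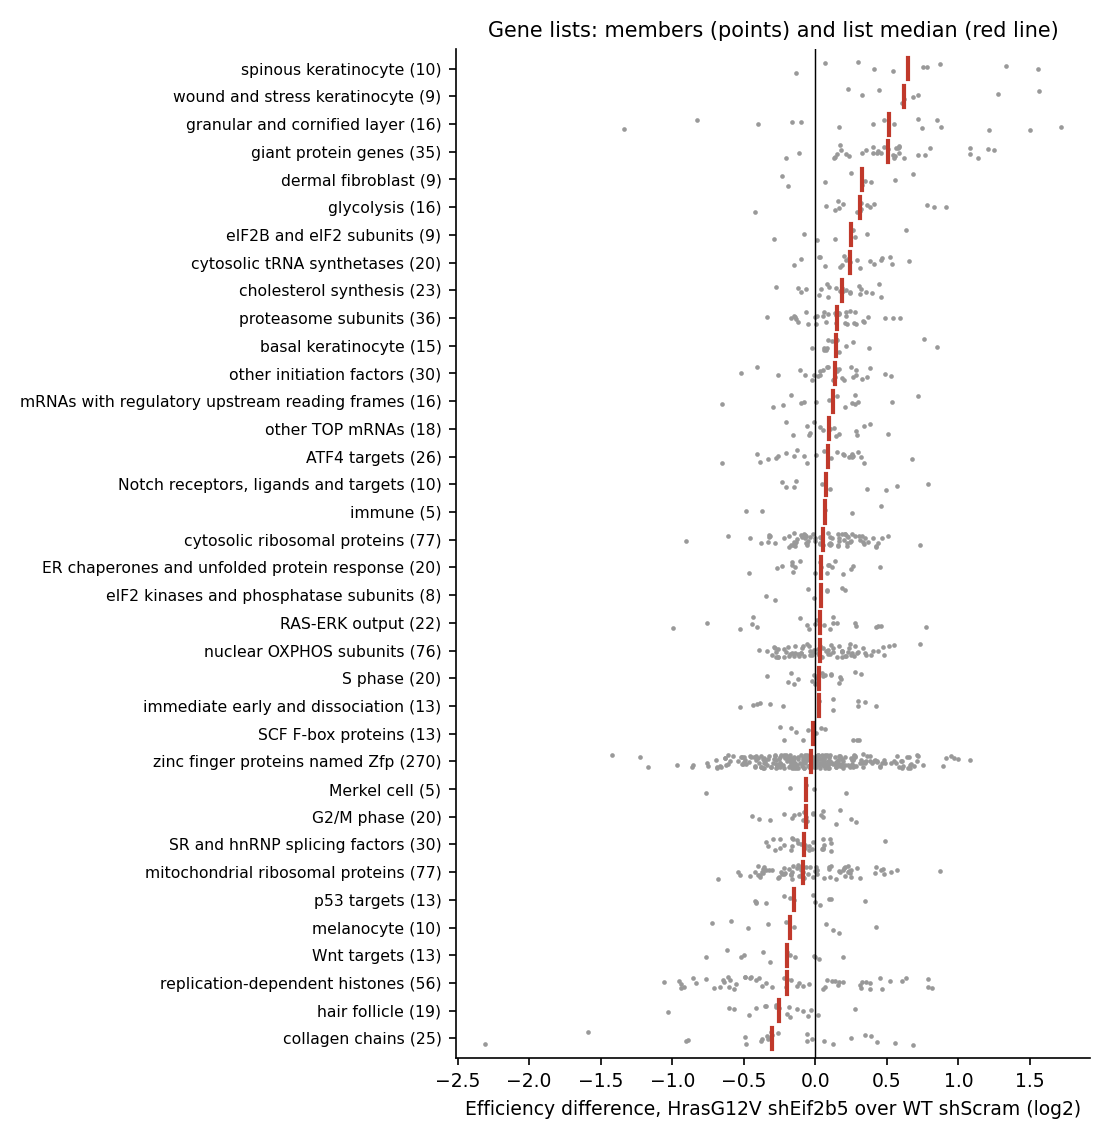
The efficiency differences (log2, HrasG12V shEif2b5 over WT shScram) of the tested members of each gene list are drawn as points with the list median as a red line, and the number of genes is in parentheses. The medians run from -0.30 for collagen chains to 0.65 for spinous keratinocyte markers among lists with at least 5 tested genes, and no point is past the adjusted threshold.

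The 12 genes of smallest efficiency p, picked after their values were seen, were 10 higher and 2 lower, and their adjusted p was 0.709 throughout (edgeR). Apart from Sptan1, Sptbn1, Fasn, Endou and Tprg, which belong to the 18 genes above, they include Epha2, Notch2, Brinp1, Fbxo9, Dbi, Dennd6a and Tbx1. Dbi, an acyl-CoA binding protein, had 749, 1086 and 1109 CPM of footprints in HrasG12V shEif2b5, against 552, 509 and 655 CPM in WT shScram. Its RNA was 178, 174 and 179 CPM in HrasG12V shEif2b5, against 160.1, 214 and 171 CPM in WT shScram, so that only footprints were apart, with an efficiency difference of 0.82 on the log2 scale. Dennd6a, which acts on a Rab GTPase, had 27.6, 21.4 and 26.1 CPM of footprints in HrasG12V shEif2b5, against 42.7, 31.1 and 33.1 CPM in WT shScram. Its RNA was 43.8, 39.5 and 41.5 CPM in HrasG12V shEif2b5, against 32.1, 31.2 and 29.0 CPM in WT shScram, so that neither kind overlapped and the directions were opposite, with an efficiency difference of -0.95.

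The HrasG12V shScram libraries place this comparison between the 2 steps that the design contains. Efficiency was called for 228 genes (2.11%) between HrasG12V shEif2b5 and HrasG12V shScram and for 126 genes (1.17%) between HrasG12V shScram and WT shScram. These comparisons share libraries with each other and with the one described here, so their values are given side by side only. The HrasG12V shScram libraries, which enter both, were not left out singly in any alternative run. Atf4 differed in efficiency by -0.03 between HrasG12V shEif2b5 and HrasG12V shScram and by 0.74 between HrasG12V shScram and WT shScram (adjusted p = 0.167, edgeR). Epha2 differed by 0.10 and 0.67 in the same order (adjusted p = 0.0737 for the second, edgeR), and Eif2b5 by 0.50 and -0.49. Of 89 genes named always, by list or by smallest p, 3 were called between HrasG12V shScram and WT shScram, against 1.17% of all genes. Most of the 89 were picked by p against the same WT shScram libraries, so that number is a description. The 3 were Dennd6a, Fbxo9 and Tyr, the enzyme of melanin synthesis, at -0.96, 1.26 and -1.06 on the log2 scale. The calls of Dennd6a and Tyr were lost without WT shScram footprint library 1 or any 1 of the WT shScram RNA libraries, that of Dennd6a also under offsets for GC content and length, and that of Fbxo9 without WT shScram footprint library 1 or 2 or WT shScram RNA library 1 or 2. Genes with coding sequences over 8000 bases had a median of 0.33 between HrasG12V shEif2b5 and HrasG12V shScram and 0.07 between HrasG12V shScram and WT shScram. By coding GC content the lowest 20% of genes had medians of 0.38 and -0.28 in these comparisons and the highest 20% -0.27 and 0.16; the HrasG12V shScram libraries enter both with opposite sign.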

How the data were processed

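Raw counts of reads on the coding sequence of each gene symbol were deposited by the authors, with no further normalization. Per the submitters' processing notes Bowtie, TopHat2 and HTSeq were used with mm10, and versions and strand settings are not given in the sources used here. Without strand, reads of overlapping or antisense genes cannot be told apart. Symbols were matched to GENCODE M21 (98.5%); 25 date-like names were kept as written. A means model of the 6 groups was fitted to all 18 libraries with edgeR 4.0.16 (R 4.3.3) after filterByExpr (minimum count 10, total 15) in each kind and TMM scaling within each kind, with a Benjamini-Hochberg adjusted p under 0.05 as the threshold. SE is the log2 difference over the root of F. CPM are counts scaled to library size after TMM. No label says that libraries came from separate animals, so p-values measure the spread between libraries, which may be technical. Libraries of 1 group had chi-square values per degree of freedom from 3.35 to 21.1, so none is a copy. Steps were tested on simulated data. The comparison and the 40 gene lists were chosen with earlier results of these data known, and no list was tested as a set. Some genes are not reported here. Named were Eif2b5, Hras, Fbxo32 and Atf4, up to 2 members of each list with the smallest p (3 where called), and, after their values were seen, the 12 genes of smallest p, genes called in footprints or RNA and genes called when a library was left out. Alternatives used DESeq2 1.42.0, limma 3.58.1, other scalings and filters, offsets, a replicate block and single libraries left out.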

Additional observations from a re-analysis of the deposited data

Results flagged for a closer look

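For 4 of 89 genes named always, by list or by smallest p, the efficiency difference from WT shScram differed between HrasG12V shEif2b5 and HrasG12V shScram (background 2.11%). This is the interaction test across all genes (edgeR). Most of the 89 were picked by efficiency p against WT shScram, which uses the same HrasG12V shEif2b5 libraries. The number called is therefore a description. No alternative run left out a single HrasG12V shScram library or fitted a replicate block to this comparison, so these calls were not checked in those ways. Mrps17, of the mitochondrial ribosome, stood 1.26 higher on the log2 scale in HrasG12V shEif2b5 (adjusted p = 0.0159), at 0.87 from WT shScram in HrasG12V shEif2b5 and -0.39 in HrasG12V shScram. Ebp, of cholesterol synthesis, stood 1.06 higher (adjusted p = 0.0307), at 0.46 in HrasG12V shEif2b5 and -0.60 in HrasG12V shScram. Stfa3, a stefin from a family of similar genes, stood 1.40 higher (adjusted p = 0.0102), at 0.68 in HrasG12V shEif2b5 and -0.72 in HrasG12V shScram. Rpl41, a very short ribosomal protein with processed copies, stood lower, at -1.63 (adjusted p = 0.0178), with -0.91 in HrasG12V shEif2b5 and 0.73 in HrasG12V shScram. The calls of Rpl41, Mrps17 and Ebp were lost without HrasG12V shEif2b5 footprint library 3 and without RNA library 1, and those of Rpl41 and Ebp also without RNA library 3; that of Stfa3 was lost when footprint libraries 2 and 3 were both left out.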

How the results depend on the processing

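The 0 efficiency calls stayed at 0 under DESeq2 or upper-quartile factors, no filter, a minimum mean CPM of 10, removal of the 20 most abundant genes, limma voom, offsets for coding GC content and length, a fit to the 12 libraries alone and a replicate block, with and without the offsets. The DESeq2 Wald test gave 3, leaving out HrasG12V shEif2b5 footprint libraries 2 and 3 together (chosen after seeing the data) gave 2, and leaving out single libraries gave 0 to 18. Footprint calls (132) were 16 without footprint libraries 2 and 3 and 40 to 228 without single libraries. RNA calls (58) were 88 with the DESeq2 Wald test and 19 to 62 without single libraries. Efficiency calls between HrasG12V shEif2b5 and HrasG12V shScram (228) were 390 with DESeq2, 115 with the offsets, 16 without footprint libraries 2 and 3 and 7 to 277 without single libraries. Those between HrasG12V shScram and WT shScram (126) were 190 without a filter, 235 with DESeq2, 66 with voom and 11 to 381 without single libraries. The cause of these shifts was not tested. Single libraries were left out only from HrasG12V shEif2b5 and WT shScram. No run left out a single HrasG12V shScram library, although RNA library 2 of that group had the fewest reads, 1771365. Same-numbered footprint and RNA libraries had correlations of 0.0148 to 0.287 in their deviations from group means, 6 of 9 over 0.1. Since not every pair was over 0.1, the numbers were not taken as pairs. Yet 8 of 9 footprint libraries correlated best with their own number. Under the replicate block the efficiency calls were 0. That block was fitted only to the efficiency of HrasG12V shEif2b5 against WT shScram. Calls in footprints, RNA and the other comparisons were not checked with it. Depth limits the least expressed genes: the 2-fold bound held for 15.2% of the lowest 20%.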

Other observations

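With HrasG12V shEif2b5 footprint library 1 standing alone for its group, 2 genes were called in efficiency, Suv420h2 at 2.53 and Whrn at 3.47 on the log2 scale. These calls assume that the lone library varies like the other groups, which was not tested. Suv420h2, a histone methyltransferase, had 354, 34 and 42 footprint reads in HrasG12V shEif2b5 libraries 1, 2 and 3, against 43, 53 and 42 in WT shScram. Whrn, a scaffold of hair cells of the inner ear, had 212, 11 and 9 reads in HrasG12V shEif2b5, against 10, 13 and 17 in WT shScram. In both genes library 1 alone was high.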
